A study of Drosophila melanogaster with 3 samples.

Results

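Pita and ZIPIC are zinc-finger proteins that bind DNA at specific sites, and the intervals described here are all of the places on the X chromosome where either protein was called as bound in S2 cells. The members were taken by position alone, as every interval whose sequence name is X in the 2 deposited peak lists. They numbered 966 of the 5815 intervals in both lists, 461 of 2768 for Pita and 505 of 3047 for ZIPIC. S2 is a cell line derived from Drosophila melanogaster embryos, and the chromatin of untreated cells grown in SFX medium was cross-linked with formaldehyde, sheared and precipitated with an antibody against Pita or against ZIPIC. Each protein had 1 sequencing library, and 1 library of input DNA, taken without antibody, served as the control of both. With 1 library per protein there was no replicate check and no test was made, peaks of 1 library are not replicates, and the intervals given with the values cover counting error only at 95%. The lists hold no reads, so the number of reads behind each peak is unknown. The study's read statistics give more unique reads for ZIPIC than for Pita. The part of this depth in counts of one protein against the other was not tested. How many copies of X and of the other chromosomes the cells carry cannot be told apart from the chromosome arm itself in any value below. Coordinates follow the dm3 assembly and are counted from 1, on the reading that the deposited starts count from 0.

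Insulator proteins bind short DNA motifs and mark borders between stretches of chromatin, at which they can keep an enhancer from acting on a promoter beyond the border. Most of them work through shared partners, and CP190 is the partner to which Pita and ZIPIC are both known to bind. The X chromosome of flies differs from the autosomes in its regulation, because in males the dosage compensation complex raises the output of its genes, and S2 cells carry out this compensation. The comparison therefore asks how the sites of the 2 proteins lie on X beside the large autosomal arms 2L, 3L and 3R.

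Per length, Pita peaks were slightly sparser on X than on the autosomal arms and ZIPIC peaks slightly denser. Against 2L, 3L and 3R together, neither differed by more than counting error. Pita had 20.8 peaks per Mb of X (exact Poisson interval 18.9 to 22.8), where Mb were counted to the last peak of either list at 22.2 Mb. The 3 reference arms had 21.5, 23.6 and 22.4 Pita peaks per Mb on 2L, 3L and 3R. The ratio of X to these arms together was 0.922, with an interval of 0.830 to 1.02 that includes 1. ZIPIC had 22.8 peaks per Mb of X (20.8 to 24.8), beside 19.4, 22.6 and 21.4 on the same arms, and a ratio of 1.08 (0.971 to 1.19). X was thus the lowest of the 4 arms for Pita and the highest for ZIPIC. Against single arms the interval left out 1 for Pita beside 3L (0.881, 0.778 to 0.998) and for ZIPIC beside 2L (1.17, 1.03 to 1.34). For the other single arms it included 1. With 2R added to the reference it left out 1 for Pita (0.886, 0.800 to 0.980). For ZIPIC it did so with p under 1e-10 (1.27, 1.08 to 1.48) and with the 1000 strongest peaks (1.26, 1.06 to 1.48).

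The density read differently against genes. X has fewer genes for its length, with 2197 protein-coding genes listed in the RefSeq table of the Release 6 assembly, beside 2657, 2739 and 3398 on 2L, 3L and 3R. For each 100 listed genes, X held 23.0 ZIPIC peaks (21.0 to 25.1), against 16.5, 19.9 and 17.5 on the reference arms, which is a ratio of 1.28 (1.16 to 1.42). For Pita the value was 21.0 (19.1 to 23.0), against 18.3, 20.8 and 18.4, and the ratio of 1.10 (0.988 to 1.22) turned above 1. The gene table follows another assembly than the peaks and served only for the number of genes in each arm.

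**Figure D1:**
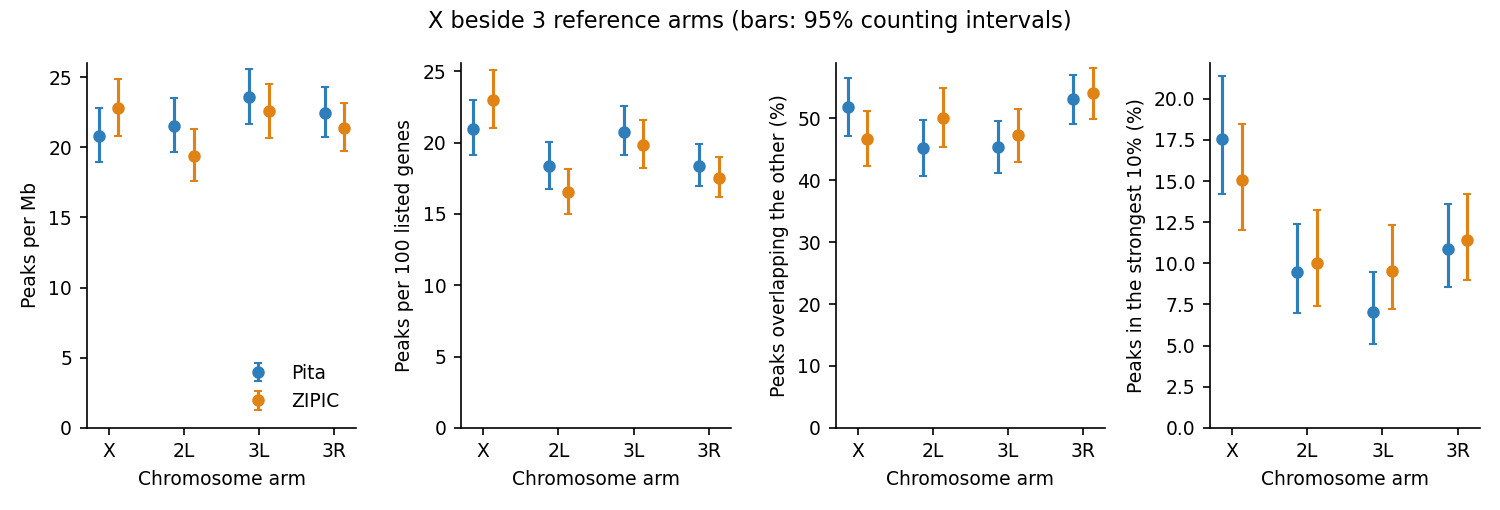
Peaks on X and on 2L, 3L and 3R, for Pita (blue) and ZIPIC (orange), as peaks per Mb, peaks per 100 listed protein-coding genes, percent of peaks that overlap a peak of the other protein and percent of peaks in the strongest 10% of the list. Points are the values of the 1 library and bars are 95% counting intervals (exact Poisson or exact binomial). The values of X for the strongest 10%, 17.6% for Pita and 15.0% for ZIPIC, lie above those of the 3 other arms.

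Along X, both proteins were spread over the whole arm, and no complete 1 Mb bin was empty. The 22 complete bins, numbered from the start of the arm, held 11 to 35 Pita peaks and 9 to 38 ZIPIC peaks. The variance of these counts was 2.02 times their mean for Pita and 2.32 times for ZIPIC, where evenly scattered independent peaks would give a value near 1. On 2L, 3L and 3R it was 3.26, 3.36 and 2.18 for Pita, so the value of X was the lowest of the 4 arms, near that of 3R. No interval was computed for these values, so their order is not shown. For ZIPIC the variance was 2.47, 1.99 and 1.54 times the mean, and X lay within that range. On all 4 arms the counts varied more than independent peaks would. The intervals of the densities and density ratios above take peaks as independent, so they are too narrow.

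The most crowded stretch for Pita was bin 2, from 1000001 to 2000000, with 35 Pita and 32 ZIPIC peaks. The most crowded for ZIPIC was bin 17, from 16000001 to 17000000, with 38 ZIPIC and 26 Pita peaks. Both proteins were sparse in the last 2 complete bins, at the end of the arm that lies near the centromere. Bin 22 held 11 Pita and 9 ZIPIC peaks, and bin 21 held 14 and 12. Bin 15, in the body of the arm, was about as sparse, with 11 Pita and 10 ZIPIC peaks.

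The 2 proteins did not always crowd in the same stretches. ZIPIC outnumbered Pita by 30 peaks to 18 in bin 8, by 29 to 16 in bin 12 and by 28 to 19 in bin 16. Pita outnumbered ZIPIC by 27 to 19 in bin 18 and by 28 to 20 in bin 19, next to the bin where ZIPIC was most crowded. Across the 22 bins, the counts of the 2 proteins had a Pearson correlation of 0.58 and a Spearman correlation of 0.50. On 2L, 3L and 3R the Pearson values were 0.88, 0.72 and 0.69 over 22, 24 and 27 bins, so the value of X was the lowest of the 4. Bins share their 2 libraries and the content of the chromosome, and these correlations are descriptions. They have no interval, so the order of the arms is not shown.

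**Figure D2:**
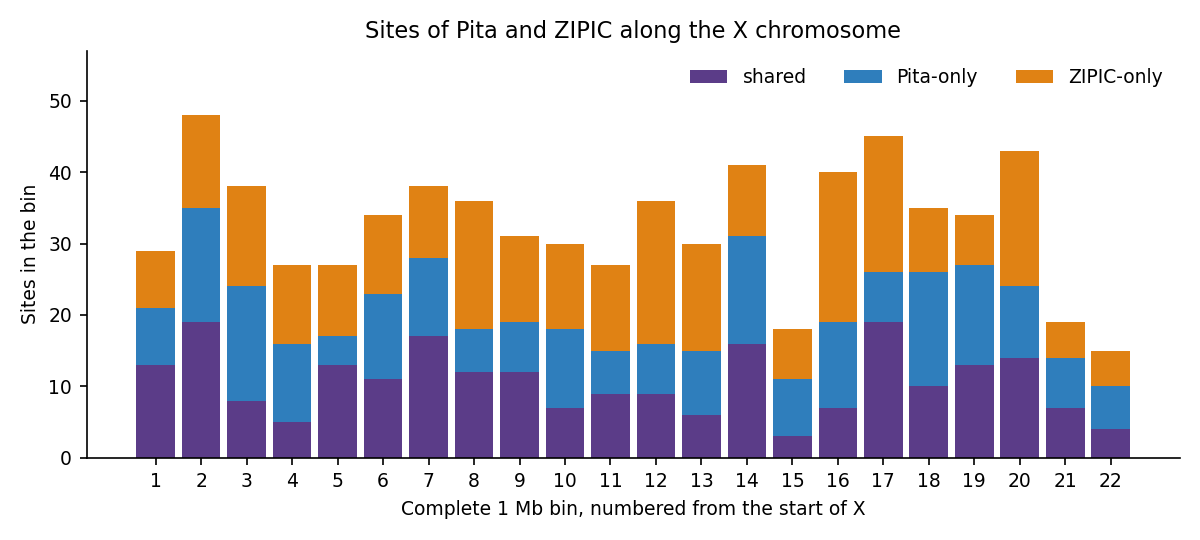
Number of shared (purple), Pita-only (blue) and ZIPIC-only (orange) sites in each of the 22 complete 1 Mb bins of X, numbered from the start of the arm. Bin 2 holds the most sites (48) and bin 22 the fewest (15), and ZIPIC-only sites make up 20 of 36 in bin 12 and 21 of 40 in bin 16.

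About as many peaks were shared on X as on the other arms. Of the Pita peaks on X, 239 (51.8%, exact binomial interval 47.2 to 56.5) shared 1 bp or more with a ZIPIC interval, where 48.9% of the whole Pita list did. The reference arms gave 45.2%, 45.3% and 53.1% on 2L, 3L and 3R. Of the ZIPIC peaks on X, 236 (46.7%, 42.3 to 51.2) overlapped a Pita peak, where 43.9% of the whole ZIPIC list did. This share was 50.1%, 47.2% and 54.0% on the reference arms, so X was the lowest for ZIPIC, with an interval that includes the values of 2L and 3L and leaves out that of 3R. When overlapping intervals were joined, X held 722 separate sites, of which 234 (32.4%) were shared, 219 (30.3%) were Pita-only and 269 (37.3%) were ZIPIC-only.

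The balance of the unshared sites leaned toward ZIPIC. ZIPIC-only sites made up 37.3% of all sites on X (33.7 to 40.9), beside 31.3%, 33.8% and 30.9% on 2L, 3L and 3R. The intervals of these 3 arms reach up to 34.9, 37.1 and 34.1 and meet that of X. Pita-only sites made up 30.3% (27.0 to 33.8), beside 37.7%, 36.2% and 33.0%. The Pita-only intervals of 3L and 3R start at 33.0 and 29.9 and meet that of X, whereas that of 2L starts at 34.1 and lies above it. X was the highest of the 4 arms in the first share and the lowest in the second, and on 2L, 3L and 3R Pita-only sites were the more numerous kind, with 263 against 218, 307 against 287 and 291 against 273.

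Where the 2 proteins overlapped on X, their peaks were mostly centred on the same place. The 239 overlapping pairs had middles a median of 25.5 bp apart, with quartiles of 7.5 and 111 bp. In 174 pairs (72.8%, 66.7 to 78.3) the middles lay within 100 bp of each other, beside 74.1%, 64.3% and 62.7% of the pairs on 2L, 3L and 3R. The shortest overlap was 76 bp and the median overlap 214 bp, so no pair on X touched only at its ends. The Pita peak lay inside the ZIPIC peak in 88 pairs and the ZIPIC peak inside the Pita peak in 75.

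Peaks on X were more often among the very strongest of each list. Strength here is the −log10 of the p-value of a peak over input, as the peak caller gave it, and it is compared only within 1 list, because it grows with the depth of a library. The strongest 10% of the Pita list, which is 10.0% of all its peaks by construction, took in 81 Pita peaks of X (17.6%, 14.2 to 21.4). On 2L, 3L and 3R the share was 9.45%, 7.03% and 10.9%. The strongest 10% of the ZIPIC list, likewise 10.0% of all its peaks, took in 76 peaks of X (15.0%, 12.0 to 18.5), beside 10.0%, 9.56% and 11.4%, whose intervals reach up to 13.2, 12.3 and 14.2 and so meet that of X. For Pita the intervals of the reference arms reached up to 12.4, 9.45 and 13.6 and lay below that of X. The median differed less, and it was the planned measure of strength, whereas the share in the strongest 10% was not planned. It was 15.7 for Pita on X (12.4 to 18.4) and 14.2, 11.4 and 16.3 on the reference arms, and for ZIPIC it was 8.58 (8.03 to 9.50) and 7.41, 7.38 and 8.40. The ratio of medians, X to the 3 arms together, was 1.13 (0.893 to 1.32) for Pita and 1.10 (1.03 to 1.22) for ZIPIC. These intervals take the reference median as fixed. The excess on X lay in the upper end of each list. For Pita, the ratio of the share on X to that on the 3 arms together was 1.92 (1.45 to 2.53) for the strongest 10%, 2.28 for the strongest 5% and 1.27 for the strongest 25%. For ZIPIC the same ratios were 1.45 (1.09 to 1.91), 2.02 and 1.17, and the interval of the last (0.968 to 1.40) includes 1.

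Strong peaks on X mostly overlapped a peak of the other list, where any peak of that list counted as a partner. Among the Pita peaks of X, divided by strength into 4 classes of equal size, sharing was 45.7%, 38.3% and 47.0% in the 3 weaker classes and 76.5% (67.7 to 83.9) in the strongest. In the strongest classes of 2L, 3L and 3R it was 58.7%, 57.7% and 66.7%, of which the last has an interval (58.7 to 74.0) that meets that of X. These classes were formed within each arm, and the strongest began at a −log10 p of 40.4 on X and at 32.6, 29.1 and 35.7 on the others. With the strongest 25% of the whole Pita list in their place, a choice made after seeing the data, 70.1% (62.0 to 77.5) were shared on X, and 58.0%, 61.2% and 66.1% on 2L, 3L and 3R, with intervals that all meet that of X. For ZIPIC the shares on X were 25.2%, 27.8%, 44.4% and 89.7% (83.0 to 94.4) from the weakest class to the strongest, and the strongest classes of the reference arms, at 85.3%, 86.8% and 91.9%, lay within that interval. In the strongest 25% of the whole ZIPIC list, 80.7% (73.8 to 86.5) were shared on X, the lowest of the 4 arms, beside 83.9%, 88.6% and 86.2%. The shares were lower where both lists were reduced to strong peaks, so that a partner had to be strong too. With p under 1e-10 in both lists 38.4% of Pita peaks and 49.1% of ZIPIC peaks of X were shared, and among the 1000 strongest peaks of both lists the shares were 41.1% and 37.1%. The median strength of shared Pita peaks on X was 21.9 and that of unshared ones 11.8, a ratio of 1.86, beside 1.64, 1.38 and 1.77 on 2L, 3L and 3R. For ZIPIC the medians were 15.2 and 6.86 and the ratio 2.22, beside 2.00, 1.90 and 1.97. Both ratios were the highest of the 4 arms. The interval of X was 1.41 to 2.69 for Pita and 1.85 to 2.83 for ZIPIC, with the unshared median taken as fixed. These intervals include the values of all other arms except that of Pita on 3L. Peaks with a p of 1e-05 or more made up 10.6% of the shared and 26.8% of the unshared ZIPIC peaks of X, and 8.37% and 12.2% of those of Pita. A wider peak has more room to meet a peak of the other list, and shared Pita peaks on X were wider than unshared ones (medians of 287 and 212 bp), whereas for ZIPIC the widths were 270 and 256 bp. The part of width in the sharing of strong peaks was not tested.

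The number of sites on X where both proteins were strong at once went with the number of strong peaks of each. In 24 of the 239 pairs on X, both peaks were in the strongest 10% of their own list, against 5 of 220 on 2L, 5 of 258 on 3L and 13 of 332 on 3R. The Pita peak was that strong in 73 pairs of X and the ZIPIC peak in 77, and the product of these 2 shares comes to 23.5 pairs, near the 24 seen. On 2L, 3L and 3R the same product comes to 6.11, 6.13 and 12.3 pairs. All 76 ZIPIC peaks of X in the strongest 10% were shared, since none of its 269 unshared peaks was that strong. Of the 81 Pita peaks, 8 were not shared. Within the pairs, the strength of a Pita peak said little about that of its ZIPIC partner. The Spearman correlation was 0.17 over the 239 pairs of X, and 0.21, 0.26 and 0.15 on 2L, 3L and 3R, as a description across sites of the same 2 libraries.

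**Figure D3:**
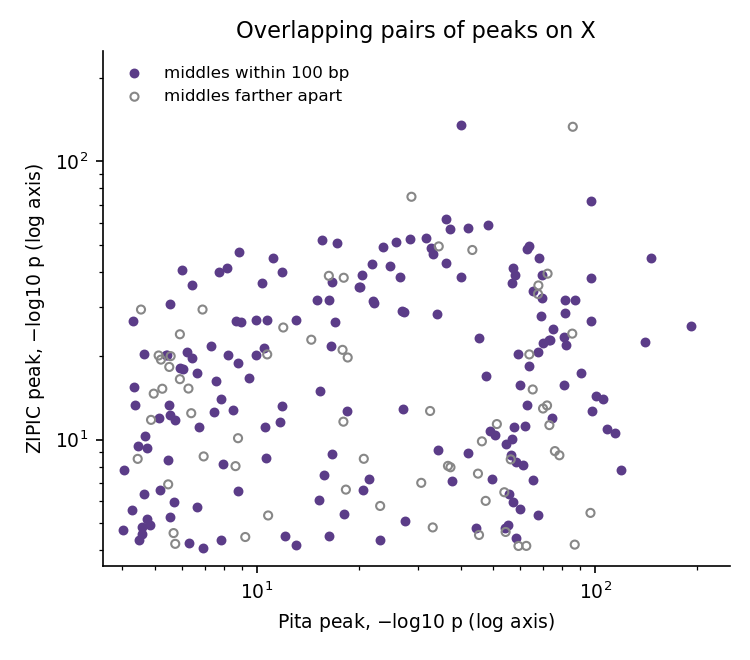
Strength of the Pita peak and of the ZIPIC peak in each of the 239 overlapping pairs on X, as −log10 p on log axes. Filled points are pairs with middles within 100 bp (174 pairs) and open points are the rest. The points fill most of the field, with Pita values up to 192 and ZIPIC values up to 135, and the highest of one protein are not the highest of the other.

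The strongest Pita sites on X were shared sites, at which ZIPIC ranged from strong to middling. The strongest Pita peak of X lay from 1180907 to 1181553, in the crowded bin 2, with a −log10 p of 192, and ranked 3 in the whole Pita list. Its ZIPIC partner, whose middle was 1.0 bp away, had a value of 25.5 and ranked 73 among the ZIPIC peaks of X. The next Pita peak, from 10662190 to 10662698, had a value of 146 and a ZIPIC partner of 45.1, which ranked 23 on X. The third lay from 3705267 to 3705906 with 141, and its partner had 22.4. The other two of the 5 strongest shared Pita peaks had weaker partners. From 20931525 to 20932053 a Pita value of 119 met a ZIPIC value of 7.75, which ranked 282 of the 505 ZIPIC peaks of X. From 7827314 to 7827810 a Pita value of 115 met a ZIPIC value of 10.5, which ranked 207.

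The strongest ZIPIC sites on X were shared as well. The strongest ZIPIC peak of X spanned 7193763 to 7195341, 1579 bp, with a −log10 p of 135, and ranked 4 in the whole ZIPIC list. Its Pita partner was also wide, with 1394 bp from 7193914 to 7195307, and had a value of 40.0, which ranked 118 among the Pita peaks of X. The second, from 829064 to 829871, had 133, and its Pita partner had 85.9 and ranked 17. At the next, from 19577131 to 19577901, a ZIPIC value of 74.6 met a Pita value of 28.6. The peak from 19746014 to 19746479 was strong for both, with a ZIPIC value of 72.3 that ranked 4 on X and a Pita value of 97.3 that ranked 12. The last of the 5 lay from 17042223 to 17042657, with 62.1 for ZIPIC and 36.1 for Pita. None of the 5 strongest shared Pita sites was among the 5 strongest shared ZIPIC sites.

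Pita had strong sites of its own on X, whereas the ZIPIC-only sites were weak beside the shared ones. The strongest Pita-only peak lay from 13535893 to 13536385 with a −log10 p of 81.7, and ranked 20 among the 461 Pita peaks of X. The nearest ZIPIC peak had its middle 25.7 kb away. The next lay from 1715075 to 1715406 with 73.1, then from 11414346 to 11414627 with 72.2, from 21045956 to 21046464 with 65.5 and from 14812377 to 14813074 with 65.4. Their distances to the nearest ZIPIC middle were 48.4, 36.9, 58.1 and 28.9 kb, so each stood well clear of any ZIPIC peak. Strong Pita-only peaks were not particular to X, and they reached 96.7, 79.6 and 72.9 on 2L, 3L and 3R. Of the Pita peaks in the strongest 10%, 8 of 81 were Pita-only on X. On 2L, 3L and 3R these were 14 of 46, 9 of 40 and 13 of 68, so X had the fewest. The strongest ZIPIC-only peak, from 15654745 to 15654903, had a value of 21.1 and ranked 89 among the 505 ZIPIC peaks of X. The next 4 had values of 20.3, 20.2, 19.5 and 19.0 and lay from 7795279 to 7795464, from 7201437 to 7202021, from 5640923 to 5641382 and from 4011299 to 4011735. Pita middles were nearer to these, at 11.7, 0.509, 7.12, 9.09 and 11.4 kb. On 2L, 3L and 3R the strongest ZIPIC-only peaks reached 28.4, 32.7 and 31.7, and 2, 2 and 1 of them were in the strongest 10% of the list.

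Over all unshared peaks of X, Pita-only peaks lay a median of 18.9 kb from the edge of the nearest ZIPIC peak, beside 17.4, 17.1 and 16.9 kb on 2L, 3L and 3R. Near misses were few, with 10 of 222 within 1 kb (4.50%, 2.18 to 8.13), beside 8.99%, 9.32% and 9.90% on the reference arms, whose intervals start at 5.84, 6.33 and 6.73 and meet that of X. ZIPIC-only peaks of X lay a median of 11.3 kb from the nearest Pita peak, and 30 of 269 were within 1 kb (11.2%), beside 14.6%, 10.8% and 10.9%.

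ZIPIC peaks were narrower on X than on the autosomal arms, and Pita peaks differed less. The median ZIPIC width on X was 263 bp (order-statistic interval 249 to 305), with quartiles of 173 and 460 bp. On 2L, 3L and 3R it was 339 bp (315 to 382), 387 bp (352 to 429) and 369 bp (341 to 403), so the interval of X lay below all of them, and the ratio to the 3 arms together was 0.711. The wide ZIPIC peaks in particular were fewer. On X, 17 peaks (3.37%, 1.97 to 5.34) were over 1000 bp, beside 8.43%, 7.72% and 7.55%, and 33.3% were under 200 bp, beside 27.3%, 25.4% and 23.2%. The median Pita width on X was 251 bp (234 to 268), within the range of 281, 249 and 274 bp on the other arms, and the ratio to the 3 arms together was 0.940 (0.876 to 1.00). The ratio was 0.917 (0.866 to 0.989) with p under 1e-05 and 0.881 (0.822 to 0.972) with peaks within 1 kb joined. These ratio intervals hold only the counting error of the X median and take the reference median as fixed. The median of the 3 arms together was 267 bp with an interval of 255 to 281, so the ratio intervals are too narrow. Pita peaks over 1000 bp were 2 on X (0.434%, 0.0526 to 1.56), beside 1.85%, 1.23% and 1.12%.

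The width of a peak depends on how strong it is and on how the caller splits neighbouring signal, and both were looked at beside this difference. When the whole ZIPIC list was divided by strength into 4 classes of equal size, the ZIPIC peaks of X had medians of 261, 221, 259 and 322 bp from the weakest class to the strongest. The corresponding values were 313, 377, 328 and 393 bp on 2L, 397, 346, 403.5 and 404.5 bp on 3L, and 303.5, 359, 389.5 and 417 bp on 3R. X was the narrowest of the 4 arms in each class. When ZIPIC peaks within 1 kb of each other were joined, which left 444 regions on X, the median width was 326 bp on X and 413, 474 and 411 bp on the others. With its narrower peaks, ZIPIC covered 8.14 bp per kb of X, beside 8.83, 10.9 and 10.0 bp, although its peaks per Mb were the most numerous there.

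**Figure D4:**
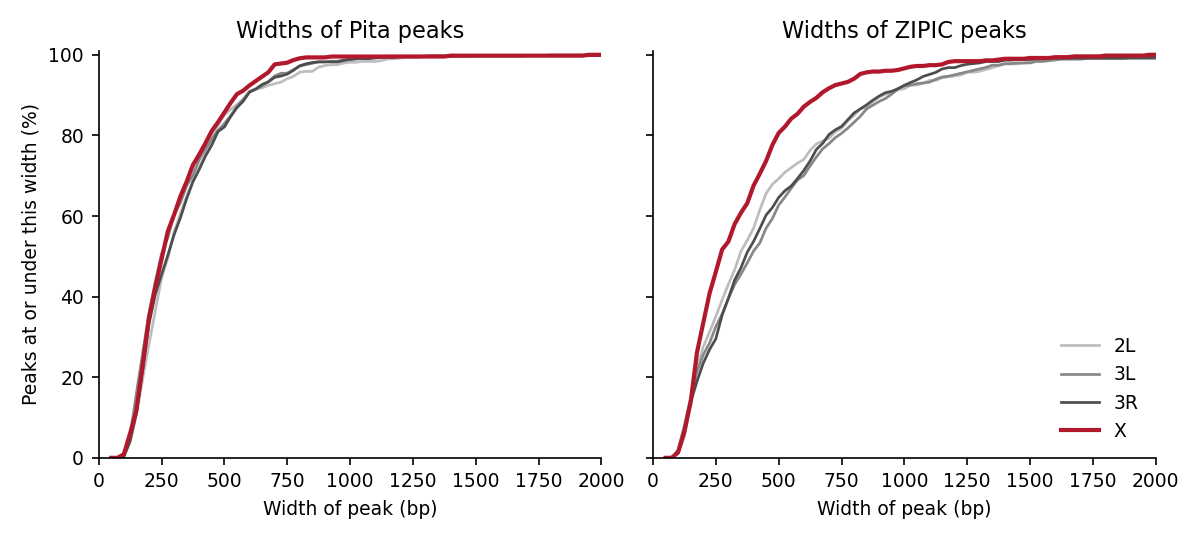
Percent of peaks at or under each width in bp, for Pita (left) and ZIPIC (right), on X (red) and on 2L, 3L and 3R (greys). The ZIPIC curve of X lies to the left of the other three over most of the range, with medians of 263 bp on X and 339, 387 and 369 bp on the reference arms, and the 4 Pita curves lie closer together.

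The widest peaks of X were places where the 2 proteins overlapped. The widest of both lists was the same site, with a Pita peak of 1939 bp from 5324461 to 5326399 and a ZIPIC peak of 1975 bp from 5324417 to 5326391. It was not strong, with a −log10 p of 18.1 for Pita and 5.41 for ZIPIC. The second widest Pita peak was the partner of the strongest ZIPIC peak of X, described above. The third, from 17720789 to 17721705, had 917 bp and a strength of 6.95. The second widest ZIPIC peak lay from 20923440 to 20925238, with 1799 bp and a strength of 22.9, and the third from 4260331 to 4261989, with 1659 bp and a strength of only 4.15. The Pita peak that met this last one was narrow and strong, with 249 bp and 59.3, and its middle lay 744.0 bp away, toward one end.

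Sites on X formed clusters about as often as elsewhere. Neighbouring sites had middles a median of 15.2 kb apart, with quartiles of 4.20 and 36.9 kb, beside medians of 15.6, 14.7 and 17.1 kb on 2L, 3L and 3R. A cluster was taken as a run of at least 3 sites with no more than 10 kb between neighbouring middles. X had 68 of them with 259 of its 722 sites (35.9%, 32.4 to 39.5), and the reference arms had 37.4%, 34.7% and 32.6% of their sites in clusters. The share depends on the limit, and was 20.6% on X with a limit of 5 kb and 59.8% with 20 kb, within the range of the other arms in both cases (15.1% to 22.8% and 56.2% to 61.7%). Most clusters were mixed, with 56 of the 68 holding more than 1 kind of site and 15 holding all 3 kinds. Of the others, 5 were Pita-only, 4 ZIPIC-only and 3 all shared.

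ZIPIC-only sites were the most clustered kind on X. Of them 43.9% lay in clusters, against 35.5% of shared and 26.5% of Pita-only sites, and the share of ZIPIC-only sites was 40.8%, 35.9% and 33.7% on 2L, 3L and 3R. On those arms shared sites were the most clustered kind, with 42.6%, 39.8% and 37.0%. No intervals were computed for these shares. ZIPIC-only sites had their nearest site of any kind a median of 4.43 kb away on X, beside 5.87, 5.41 and 7.50 kb. On X, 60 of the 269 (22.3%, 17.5 to 27.8) had the middle of another site within 1 kb, beside 20.2%, 15.3% and 12.1%. The intervals of 2L and 3L reach up to 26.1 and 20.0 and meet that of X, and that of 3R reaches 16.6 and lies below it. Of the 721 pairs of neighbouring sites on X, 127 (17.6%) were both ZIPIC-only, beside 10.8%, 13.7% and 10.7%, and the longest unbroken run held 8 ZIPIC-only sites, beside 6, 7 and 6. X also had the largest share of ZIPIC-only sites, as given above, and its part in these runs was not tested. Shared sites of X had their nearest site a median of 5.23 kb away, within the range of 4.51, 4.49 and 6.00 kb on the other arms.

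**Figure D5:**
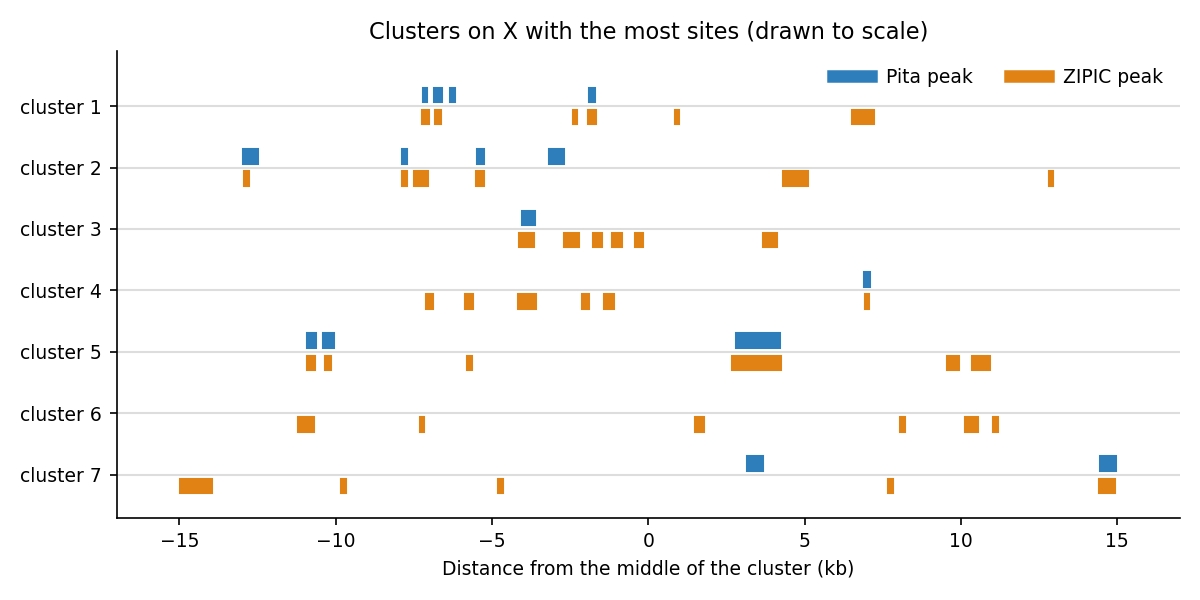
The 7 clusters of X with the most sites, each on its own line, with Pita peaks (blue, above the line) and ZIPIC peaks (orange, below) drawn to scale by their distance in kb from the middle of the cluster. Clusters 1 and 2 have 7 sites and the others 6. Cluster 6 has no Pita peak, and in clusters 3 and 4 a row of ZIPIC peaks stands beside 1 shared site.

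The clusters with the most sites had different make-ups. Those with 7 sites lay from 19531943 to 19546409 and from 16164800 to 16190704, and each had 3 shared, 1 Pita-only and 3 ZIPIC-only sites. In the first, over 14.5 kb, the shared sites had Pita values of 4.44, 63.8 and 36.2 and ZIPIC values of 9.51, 18.4 and 43.3. The 3 ZIPIC-only peaks had values of 6.19, 7.52 and 7.82. In the second, over 25.9 kb, values reached 51.2 for Pita and 29.0 for ZIPIC.

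Another 5 clusters tied with 6 sites each, and 3 of them were nearly or wholly ZIPIC. The most compact lay from 3634854 to 3643119, 8.27 kb, with 1 shared site (Pita 7.46, ZIPIC 12.6) and 5 ZIPIC-only peaks of 252 to 470 bp, whose values were 6.96, 4.27, 6.30, 4.14 and 4.35. From 12644759 to 12658955 a narrow shared site with a Pita value of 49.4 and a ZIPIC value of 7.21 stood at one end, and 5 ZIPIC-only peaks with values between 4.11 and 12.4 at the other. From 2030793 to 2053170 all 6 sites were ZIPIC-only, over 22.4 kb, with values of 10.8, 4.41, 10.2, 4.65, 7.56 and 7.30. ZIPIC-only peaks in these 3 clusters were thus weak to moderate, and none was in the strongest 10% of the list. The cluster from 7180173 to 7202021 was of the other sort. It held 3 shared sites, among them the strongest ZIPIC peak of X, with Pita values of 81.2, 56.7 and 40.0 and ZIPIC values of 31.7, 10.1 and 135, and 3 ZIPIC-only peaks of 16.0, 13.2 and 20.2. The last, from 1264309 to 1294235, spread 4 ZIPIC-only sites, 1 Pita-only site and 1 shared site over 29.9 kb, and its shared site had a Pita value of 87.1.

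Long stretches of X were without any site. There were 50 gaps of over 100 kb between neighbouring middles, beside 57, 43 and 54 on 2L, 3L and 3R. The longest was 362 kb, between a Pita-only site that ends at 21495710 and another that begins at 21857501, in the sparse bin 22. The next was 296 kb, between a shared site that ends at 19760439 and a ZIPIC-only site that begins at 20056498. The third was 251 kb, between ZIPIC-only sites that end at 10752697 and begin at 11002941. The longest gaps of the reference arms were 372, 459 and 260 kb.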

How the data were processed

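Chromatin of S2 cells was precipitated with antibodies against Pita or ZIPIC, with input DNA as control, 1 library each. Alignment by the authors used Bowtie and the dm3 assembly. Only unique reads with an unambiguous position entered peak calling, for which PeakRanger and MACS are named, against input. FastQC and SAMtools appear in the submitters' processing notes. Their versions were not given in the sources used here. In the deposited form, the lists give start, end, an unadjusted p-value and a false discovery rate per peak, without reads or fold over input. The authors' p-values were used as −log10 p, and no peak of X had p listed as 0. The study's methods state a limit of p under 1e-05, but the deposited lists also hold weaker peaks, which were kept. On X, 414 of 461 Pita peaks and 408 of 505 ZIPIC peaks had p under 1e-05.

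Peaks with the sequence name X were taken from both lists and set beside 2L, 3L and 3R. Overlap meant at least 1 bp, sites were unions of overlapping intervals, and arm lengths ran to the last peak of either list. Intervals are exact Poisson, Clopper-Pearson or order-statistic at 95%. No reference genome was used here, so genes, sequences and the planned motif searches were not analysed. The regions named are the 5 strongest shared and unshared peaks and the 3 widest peaks of each list, the 5 clusters with most sites (7 with ties), the 3 longest gaps and the densest and emptiest bins. These members and rules were chosen with earlier results of the same data known. The procedures were tested on simulated lists. Alternatives changed the p limit, the number of peaks, the overlap rule, the reference arms, the bins and the cluster limits. The work used SciPy 1.17.1, pandas 2.3.3 and NumPy 2.4.6 under Python 3.11.15, with matplotlib 3.10.9 for plots.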

Additional observations from a re-analysis of the deposited data

Results flagged for a closer look

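The ZIPIC list held 5 peaks on XHet, the heterochromatic X sequence of dm3 that the comparisons above do not use, and the Pita list held 0. They are given because 5 is more than 3, the limit used here for a count of 0, but the exact Poisson intervals of the counts (1.62 to 11.7 for ZIPIC and 0 to 3.69 for Pita) overlap, so a difference between the proteins is not shown. The 5 peaks were 583, 617, 319, 1381 and 1370 bp wide, with −log10 p values of 4.23, 6.00, 4.10, 6.04 and 5.73, and all lay below the ZIPIC median of 8.58 on X.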

How the results depend on the processing

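Of 62 values recomputed over 15 results, 47 stayed within the counting interval of the main value (for the spread over bins, within 1.5 times), 15 moved out of it and 0 reversed a ratio whose interval left out 1. The cause of each move was not tested, apart from limits that change by construction. Per gene in place of per Mb, the density ratio of X moved to 1.10 for Pita and 1.28 for ZIPIC. For ZIPIC it moved to 1.27 with p under 1e-10 and to 1.26 with the 1000 strongest peaks, and its intervals (1.08 to 1.48 and 1.06 to 1.48) then left out 1. Against 2L, 2R, 3L and 3R the Pita ratio of 0.886 (0.800 to 0.980) stayed in the main interval but its own interval left out 1, as it did against 3L alone (0.881), and for ZIPIC against 2L alone (1.17). With both lists reduced alike, the share of Pita peaks of X that were shared moved to 38.4% with p under 1e-10, to 41.1% with the 1000 strongest and to 37.7% with middles within 100 bp, and that of ZIPIC peaks to 37.1% with the 1000 strongest and to 34.5% with middles within 100 bp. The share of sites in clusters moved to 20.6% with a limit of 5 kb, 59.8% with 20 kb, 31.1% with p under 1e-05 and 20.9% with at least 4 sites. Chosen after seeing the data, the ratio for the strongest 10% moved to 1.27 for Pita at the strongest 25% and to 2.02 for ZIPIC at the strongest 5%. The Pita width ratio of 0.940 stayed in its interval under each setting run, but the recomputed interval left out 1 with p under 1e-05 and with peaks joined. Those intervals take the reference median as fixed and are too narrow, so narrower Pita peaks on X are not shown. The narrower ZIPIC width held under each setting run, with ratios of 0.697 to 0.787. No paired analysis was possible because each protein has 1 library.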
